A study of Rattus norvegicus with 9 samples.

Results

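The immediate early and activity genes described here are 9 of the 32623 Ensembl rat genes in a table of RNA sequencing counts from rat brain tissue: Fos, Jun, Atf3, Egr1, Egr2, Nr4a1, Dusp1, Arc and Bdnf. They were chosen by identifier (Fos ENSRNOG00000008015, Jun ENSRNOG00000026293, Atf3 ENSRNOG00000003745, Egr1 ENSRNOG00000019422, Egr2 ENSRNOG00000000640, Nr4a1 ENSRNOG00000007607, Dusp1 ENSRNOG00000003977, Arc ENSRNOG00000043465 and Bdnf ENSRNOG00000047466). All 9 passed the filter on low counts, which kept 15402 genes. The model is not described in the labels; the injection followed the modelling by 4.5 h, and tissue was taken 3 days after it. The treatments were saline, rt-PA (recombinant tissue plasminogen activator, which dissolves clots by turning plasminogen into plasmin) and Nano-patrol+NIR, a thrombolysis treatment by the series title, with 3 libraries each. The 3 libraries titled rt-PA are named uk in the table and in their description field, and which agent they received was not resolved. No strain, age, brain region or hemisphere is given in the sources used here, and no group without the modelling step and none given Nano-patrol or NIR alone was analysed here. Library totals ran from 13059048 to 14992109 counts.

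Immediate early genes are transcribed within minutes of a stimulus, without new protein synthesis, from promoters that are held ready for kinase-activated factors such as CREB and serum response factor. In neurons the stimulus is mostly synaptic activity and calcium entry, and in injured brain it also includes ischaemia, spreading depolarisation and seizures. Their products are transcription factors that pass the signal to later genes, feedback inhibitors that end it, and effectors that act at synapses.

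Promoter windows of 4 members are printed, from genes with different patterns over the libraries: Dusp1 was higher than in saline in all 6 treated libraries, Egr2 and Bdnf were highest in rt-PA 1 and rt-PA 2 and within or below the saline range in rt-PA 3, and Nr4a1 had nearly equal means in saline and rt-PA. RefSeq start-site windows of build GRCr8, from 250 bases before to 50 after a start, were matched by symbol for 5 of the 9 genes, as 10 windows, 6 of them for Bdnf. Fos, Jun, Atf3 and Arc had no window. Capitals mark cAMP response element matches (TGACGTCA, or a half-site TGACG or its complement CGTCA, searched on both strands, with each full element also holding both half-sites) and the CArG box, the binding motif of serum response factor.
Dusp1, chr10:17184603-17184902, plus strand: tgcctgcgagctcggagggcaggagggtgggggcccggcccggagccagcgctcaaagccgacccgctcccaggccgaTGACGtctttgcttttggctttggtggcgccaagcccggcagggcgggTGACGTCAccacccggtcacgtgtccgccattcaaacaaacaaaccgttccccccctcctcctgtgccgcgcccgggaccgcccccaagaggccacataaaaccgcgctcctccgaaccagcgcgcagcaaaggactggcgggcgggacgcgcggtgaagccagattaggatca
Egr2, chr20:21054392-21054691, minus strand: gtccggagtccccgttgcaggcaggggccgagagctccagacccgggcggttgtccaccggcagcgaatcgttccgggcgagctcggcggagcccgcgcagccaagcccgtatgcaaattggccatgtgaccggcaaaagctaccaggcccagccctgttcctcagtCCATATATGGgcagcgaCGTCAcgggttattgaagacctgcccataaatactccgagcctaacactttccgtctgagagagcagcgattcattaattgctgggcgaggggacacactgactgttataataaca
Nr4a1, chr7:134259888-134260187, plus strand: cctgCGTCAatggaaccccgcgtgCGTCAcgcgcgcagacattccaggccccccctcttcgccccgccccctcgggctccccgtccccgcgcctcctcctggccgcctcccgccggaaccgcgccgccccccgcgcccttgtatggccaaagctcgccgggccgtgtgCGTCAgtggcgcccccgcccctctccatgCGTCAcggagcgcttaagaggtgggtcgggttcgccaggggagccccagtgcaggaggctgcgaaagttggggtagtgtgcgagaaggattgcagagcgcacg
Bdnf, the fourth of its windows by position, chr3:116637608-116637907, plus strand: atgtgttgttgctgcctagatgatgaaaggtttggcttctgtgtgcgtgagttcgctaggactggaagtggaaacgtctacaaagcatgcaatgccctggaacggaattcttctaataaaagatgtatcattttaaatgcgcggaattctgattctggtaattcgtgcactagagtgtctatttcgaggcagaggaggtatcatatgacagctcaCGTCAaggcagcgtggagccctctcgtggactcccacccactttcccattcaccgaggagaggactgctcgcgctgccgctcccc
The Dusp1 window held a full cAMP response element 124 bases before the start and a further half-site 172 bases before it. The Egr2 window held a CArG box 83 bases before the start and a half-site at 66 bases. A CArG box stood at the same distance of 83 bases in the Egr1 window, with a further one at 105 bases and half-sites at 66 and 135 bases. The Nr4a1 window held 4 half-sites and no CArG box. The printed Bdnf window held 1 half-site, 35 bases before the start. It was the only half-site in the 6 windows of Bdnf, which held no full element and no CArG box. Of all 33469 windows of this length, 1.83% held a full element, 21.2% a half-site and 1.64% a CArG box. TGANTCA, a pattern looser than the AP-1 motif because it allows any middle base, was in 7.33% of all windows. It was found once among the members, as TGAATCA in the third Bdnf window, so no AP-1 site is claimed there. These matches describe the letters of the windows only.

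In each group 1 library stood apart from the other 2 across all genes. Saline 1, rt-PA 3 and Nano-patrol+NIR 3 correlated with the other libraries of their group at r = 0.896 to 0.944 over log2 CPM, against 0.984 to 0.990 within the remaining pairs; these are correlations across genes, which are not independent replicates. Leaving out rt-PA 3 was the 1 removal of a single library that changed which of the 9 genes edgeR called, so calls are given with and without it. Other removals turned or moved single differences, and the main cases are given with each comparison. Values per library are CPM, which are counts divided by the TMM-adjusted library total (trimmed mean of M values) and set to a common scale. The scale depends on transcript length, so levels were compared between libraries and not between genes. In bulk tissue, fewer cells of a type and less RNA per cell cannot be told apart. The table holds identifiers without symbols, so the brain label was not checked against cell type markers, and the part of cell composition in these values was not tested.

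The AP-1 subunits were highest in rt-PA 1 and rt-PA 2. Fos encodes a leucine zipper protein that pairs with Jun proteins to form AP-1 and is the standard histological marker of recent neuronal activity. Fos stood at 36.1, 3.85 and 6.25 CPM in saline 1 to 3, at 188, 302 and 20.2 CPM in rt-PA 1 to 3, and at 26.6, 17.1 and 11.5 CPM in Nano-patrol+NIR 1 to 3. Saline 1 lay above rt-PA 3 and above each Nano-patrol+NIR library, so the ranges overlapped in both comparisons with saline. The group means were 15.4 ± 18.0 CPM in saline, 170.0 ± 142 CPM in rt-PA and 18.4 ± 7.66 CPM in Nano-patrol+NIR (SD, n = 3 each). Jun encodes the partner of Fos in AP-1 and can also bind DNA without it. Its level was 111, 130 and 124 CPM in saline 1 to 3, 458, 683 and 93.0 CPM in rt-PA 1 to 3, and 155, 155 and 105 CPM in Nano-patrol+NIR 1 to 3. Jun had the tightest saline values of the 9 genes, with a highest to lowest ratio of 1.17, and rt-PA 3 was the lowest library of all.

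Atf3, a stress-inducible transcription factor of the same leucine zipper class, was close to absent in saline, with 15, 0 and 7 counts in saline 1 to 3 (1.02, 0 and 0.497 CPM). A count of 0 in saline 2 allows up to 3 counts, or 0.231 CPM, by counting error alone. The rt-PA libraries held 21.2, 43.2 and 1.25 CPM and the Nano-patrol+NIR libraries 1.27, 0.986 and 1.60 CPM. Each rt-PA library was above each saline library, although rt-PA 3, at 18 counts, exceeded saline 1 by only 3 counts and, in CPM, lay inside the Nano-patrol+NIR range. Nano-patrol+NIR overlapped saline through saline 1 and Nano-patrol+NIR 2.

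Egr1 and Egr2 encode zinc finger transcription factors; Egr1 is induced by synaptic activity and growth factors and Egr2 is also known for its role in myelinating Schwann cells. Egr1 stood at 253, 140 and 147 CPM in saline 1 to 3, at 518, 775 and 53.5 CPM in rt-PA 1 to 3, and at 333, 249 and 109 CPM in Nano-patrol+NIR 1 to 3. The lowest library was rt-PA 3 and the next lowest Nano-patrol+NIR 3, so both treated groups spanned the saline values. Egr2 stood at 5.77, 0.924 and 2.63 CPM in saline 1 to 3, at 89.9, 118 and 0.487 CPM in rt-PA 1 to 3, and at 18.2, 14.9 and 2.99 CPM in Nano-patrol+NIR 1 to 3. The 7 counts of Egr2 in rt-PA 3, set against 1165 and 1552 counts in rt-PA 1 and rt-PA 2, made this the widest spread within a group among the 9 genes, with a highest to lowest ratio of 243. Nano-patrol+NIR 1 and 2 were above all saline libraries for Egr2, and Nano-patrol+NIR 3 was inside their range.

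Nr4a1 encodes an orphan nuclear receptor, Nur77, that is induced by activity in neurons and by inflammatory signals in macrophages. It was the 1 member whose highest library was not rt-PA 2. Its level was 114, 57.5 and 76.1 CPM in saline 1 to 3, 100.1, 125 and 19.3 CPM in rt-PA 1 to 3, and 158, 143 and 64.4 CPM in Nano-patrol+NIR 1 to 3. The means of saline, 82.6 ± 28.9 CPM, and rt-PA, 81.3 ± 55.1 CPM, differed by far less than the spread within either group (SD, n = 3 each), and Nano-patrol+NIR averaged 122 ± 50.2 CPM (SD, n = 3).

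Dusp1 was the only member with every library of both treatments above every saline library. It encodes a dual-specificity phosphatase, MKP-1, that dephosphorylates the MAP kinases p38, JNK and ERK and so ends the signal that induced it. Dusp1 stood at 25.2, 42.0 and 40.9 CPM in saline 1 to 3, at 136, 224 and 89.1 CPM in rt-PA 1 to 3, and at 134, 104 and 84.2 CPM in Nano-patrol+NIR 1 to 3. The lowest treated library, Nano-patrol+NIR 3, was above the highest saline library, and the treated groups overlapped each other. Of all tested genes 9.18% were higher in rt-PA than in saline without overlap, and 7.62% in Nano-patrol+NIR. With all libraries the edgeR adjusted p of Dusp1 was over 0.05 in both comparisons with saline. The group means were 36.0 ± 9.42 CPM in saline, 150 ± 68.5 CPM in rt-PA and 107 ± 25.1 CPM in Nano-patrol+NIR (SD, n = 3 each).

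Of the effectors, Arc encodes a capsid-like protein that drives removal of AMPA receptors from synapses, and its RNA is carried to active dendrites. Arc stood at 116, 42.8 and 60.6 CPM in saline 1 to 3, at 114, 218 and 12.5 CPM in rt-PA 1 to 3, and at 115, 92.7 and 28.7 CPM in Nano-patrol+NIR 1 to 3. Saline 1, rt-PA 1 and Nano-patrol+NIR 1 were nearly level, and the lowest of the 9 libraries was rt-PA 3, followed by Nano-patrol+NIR 3. Bdnf encodes brain-derived neurotrophic factor, the ligand of the receptor TrkB, which supports neurons and strengthens synapses. Its level was 4.89, 9.32 and 11.4 CPM in saline 1 to 3, 211, 254 and 7.79 CPM in rt-PA 1 to 3, and 16.9, 18.7 and 5.36 CPM in Nano-patrol+NIR 1 to 3. For Bdnf rt-PA 1 was 24.7 times and rt-PA 2 29.7 times the saline mean, whereas rt-PA 3 was inside the saline range.

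**Figure D1:**
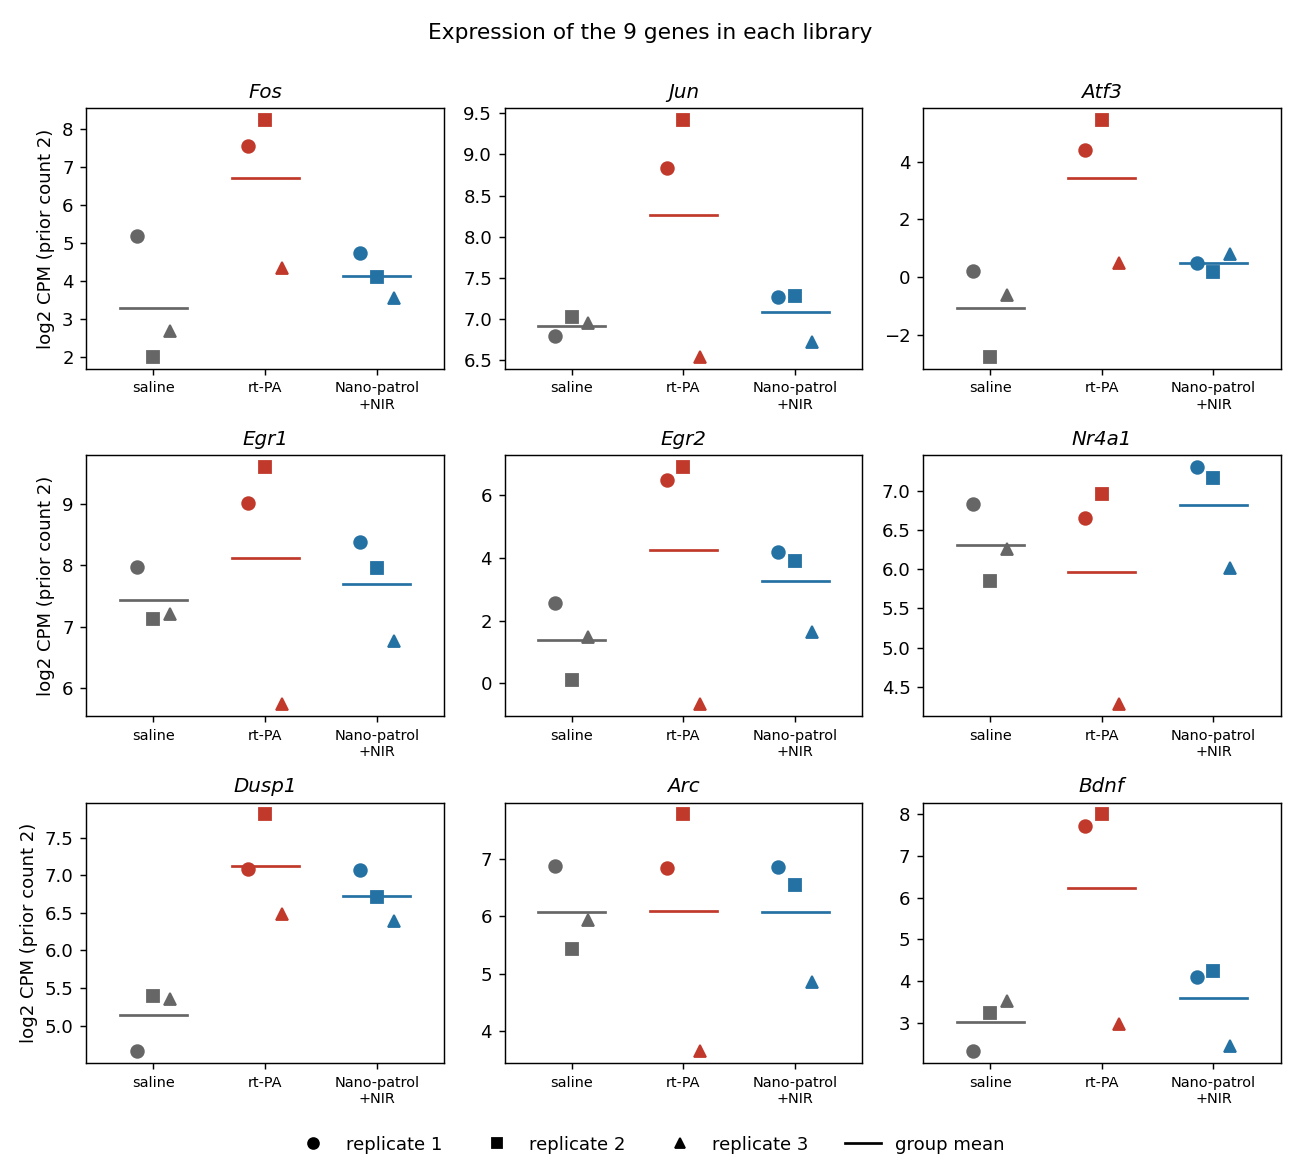
Level of each of the 9 genes (y axis, log2 CPM with a prior count of 2) in the 3 libraries of saline, rt-PA and Nano-patrol+NIR; symbols mark the replicate number, lines the group mean, and each panel has its own scale. rt-PA 2 was the highest library for 8 of the 9 genes, and Dusp1 is the panel in which all treated libraries lie above all saline libraries.

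Most members shared their highest library, and fewer shared their lowest. rt-PA 2 was the highest of the 9 libraries for 8 of the 9 genes, where it was the highest for 19.3% of all tested genes, and Nano-patrol+NIR 1 was the highest for Nr4a1. rt-PA 3 was the lowest for 5 members (Jun, Egr1, Egr2, Nr4a1 and Arc), where it was the lowest for 13.6% of all tested genes. Saline 1 and saline 2 were the lowest for 2 members each, and for 17.9% and 9.86% of all tested genes. The number of members above every saline library was 7 for rt-PA 1 (all but Nr4a1 and Arc), 9 for rt-PA 2 and 2 for rt-PA 3 (Atf3 and Dusp1), against 29.5%, 31.4% and 28.1% of all tested genes. In Nano-patrol+NIR 1 to 3 it was 7, 5 and 2, against 20.4%, 21.6% and 28.9%. Below every saline library were 5 members in rt-PA 3 and 3 in Nano-patrol+NIR 3 (Jun, Egr1 and Arc), against 27.9% and 27% of all tested genes. In rt-PA 1, rt-PA 2, Nano-patrol+NIR 1 and Nano-patrol+NIR 2 it was 0 members each, against 31.7%, 34.2%, 21.2% and 21.9%.

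**Figure D2:**
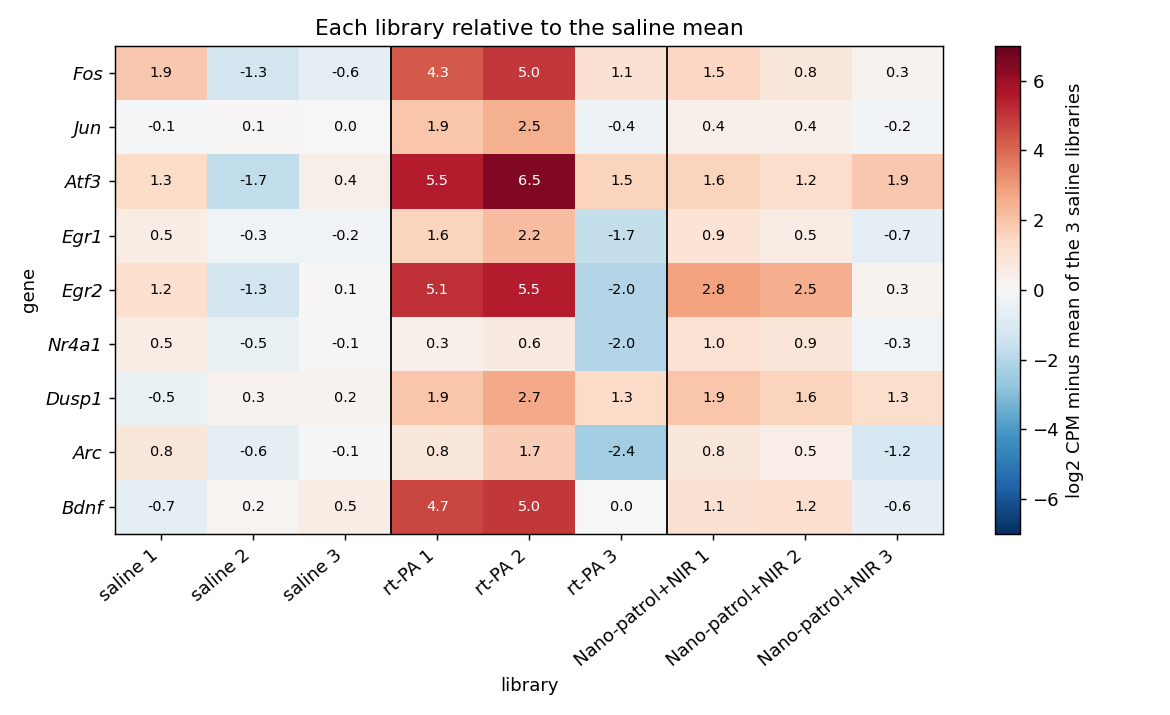
Log2 CPM of each gene (rows) in each library (columns) minus the mean of the 3 saline libraries, with the value printed in each cell and red for higher and blue for lower. Atf3, Egr2, Bdnf and Fos carry the darkest cells, all in rt-PA 1 and rt-PA 2, and Atf3 and Dusp1 are the 2 rows in which each treated library exceeds 1.

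Within the rt-PA group the members differed more than most genes. The range of log2 CPM over the 3 rt-PA libraries was 1.33 to 7.55 for the members, with a median of 3.89, against a median of 0.66 over all tested genes. It exceeded 2 for 8 of 9 members and for 1544 of the 15402 tested genes. The same range had a median of 1.20 among the members in saline and of 1.29 in Nano-patrol+NIR, against 0.55 and 0.47 over all tested genes. Both rt-PA 1 and rt-PA 2 exceeded rt-PA 3 by more than 2 in log2 CPM, or 4-fold, for 8 of 9 members (all but Dusp1), against 2.93% of tested genes. Dusp1 was 1.52 and 2.51 times its rt-PA 3 value in those libraries, and Egr2 was 185 and 243 times. rt-PA 3 was set apart for this description because it differed from its group across all genes. What made it differ was not tested.

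**Figure D3:**
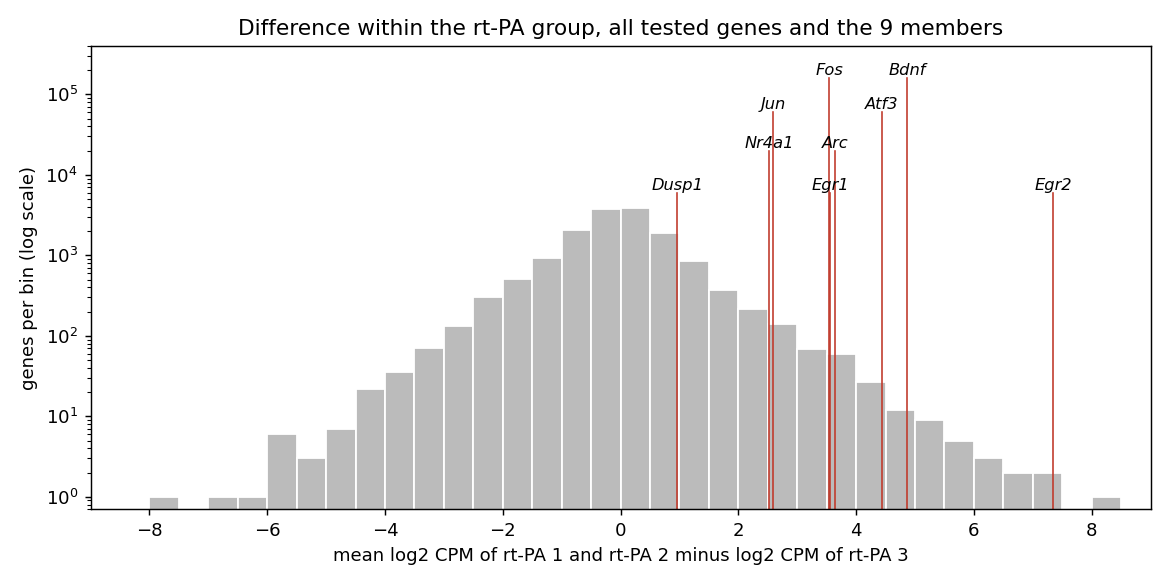
Histogram over all 15402 tested genes of the mean log2 CPM of rt-PA 1 and rt-PA 2 minus that of rt-PA 3 (x axis; genes per bin on a log y axis), with a red line at the value of each of the 9 genes. All 9 lines lie to the right of 0, from 0.97 for Dusp1 to 7.35 for Egr2.

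The Nano-patrol+NIR group also had its lowest value in the library that stood apart for most members. Nano-patrol+NIR 3 was below Nano-patrol+NIR 1 and 2 for 8 of 9 members, Atf3 being the exception, and for 42.9% of all tested genes. For these 8 members the difference from the mean of that pair was 0.49 for Dusp1 to 2.41 for Egr2 in log2 CPM. In saline the library that stood apart was the highest of the group for 6 of 9 members. Saline 1 was above saline 2 and 3 for Fos, Atf3, Egr1, Egr2, Nr4a1 and Arc, by 2.84 for Fos and 1.19 for Arc. The share of all tested genes with saline 1 above both was not counted. Saline 1 was below them for Jun, Dusp1 and Bdnf, by 1.06 for Bdnf, and for 44% of all tested genes.

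The first comparison asked whether these genes differed between rt-PA and saline. In the fit of all 9 libraries 8 of 9 members were higher in rt-PA, with a median log2 fold change of 2.05 against -0.01 over all tested genes. The fitted values were 5.38 (SE 1.28) for Atf3, 4.47 (SE 1.49) for Egr2, 4.20 (SE 1.08) for Bdnf, 3.46 (SE 1.08) for Fos, 2.05 (SE 0.36) for Dusp1 and 1.76 (SE 0.57) for Jun. Each of these 6 had an unadjusted edgeR p under 0.05 and was higher in rt-PA, as were 9.05% of all tested genes. With Benjamini-Hochberg adjustment over all genes 0 of the 9 passed 0.05 in edgeR, where 0.00649% of genes (1 of 15402) passed. The smallest adjusted p was that of Dusp1, 0.0635, followed by Atf3 at 0.11, Bdnf at 0.126, Fos at 0.174, Jun at 0.187 and Egr2 at 0.193. The log2 difference was 1.32 (SE 0.79, 95% interval -0.48 to 3.12) for Egr1, 0.65 (SE 0.87, -1.32 to 2.62) for Arc and -0.02 (SE 0.61, -1.41 to 1.37) for Nr4a1, and these intervals leave room for differences of more than 2-fold in either direction for Arc and Nr4a1. The difference of Arc turned to -0.21 without rt-PA 2, that of Egr1 fell to 0.67 without it, and that of Nr4a1 was -0.47 to 0.46 with any 1 library left out. Without saline 1, the highest saline library for these genes, the differences were larger than without rt-PA 3 for Fos (5.12), Atf3 (6.41) and Egr2 (5.32), with edgeR adjusted p of 0.0998, 0.13 and 0.2. Atf3 and Dusp1 were the 2 members whose rt-PA and saline ranges did not overlap, both higher in rt-PA, against 9.18% of all tested genes that were higher without overlap.

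Without rt-PA 3 the same fit called 7 of the 9 members, all higher in rt-PA, where 8.25% of all genes were called higher. Jun rose by 2.26 (SE 0.23, edgeR adjusted p = 0.00166), Bdnf by 4.80 (SE 0.53, adjusted p = 0.00244) and Dusp1 by 2.35 (SE 0.30, adjusted p = 0.00376) on the log2 scale. Atf3 rose by 5.95 (SE 0.80, edgeR adjusted p = 0.00458), Egr2 by 5.06 (SE 0.85, adjusted p = 0.0101), Fos by 3.99 (SE 0.89, adjusted p = 0.027) and Egr1 by 1.86 (SE 0.46, adjusted p = 0.0382). Arc, at 1.20 (SE 0.61, edgeR adjusted p = 0.229), and Nr4a1, at 0.46 (SE 0.41, adjusted p = 0.482), did not pass. Leaving out a library because it lies far from its group makes the remaining spread, and with it these p-values, too small. DESeq2 with all 9 libraries called 6 members (Fos, Jun, Atf3, Egr2, Dusp1 and Bdnf), all higher, where it called 4.35% of all genes higher. The limma-voom fit called 0 of 9, where it called 0% of genes, and 3 members were higher at an unadjusted p below 0.05, where 7.56% of genes were. With a weight per library limma-voom called 8 members higher, where it called 21.9% of all genes higher. The weights, learned from these same data, were 0.132 for rt-PA 3, 0.177 for saline 1 and 0.311 for Nano-patrol+NIR 3. Those of the other libraries were 0.979 to 3.75. The weighted fit therefore shares the limit given above for leaving out a library.

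**Figure D4:**
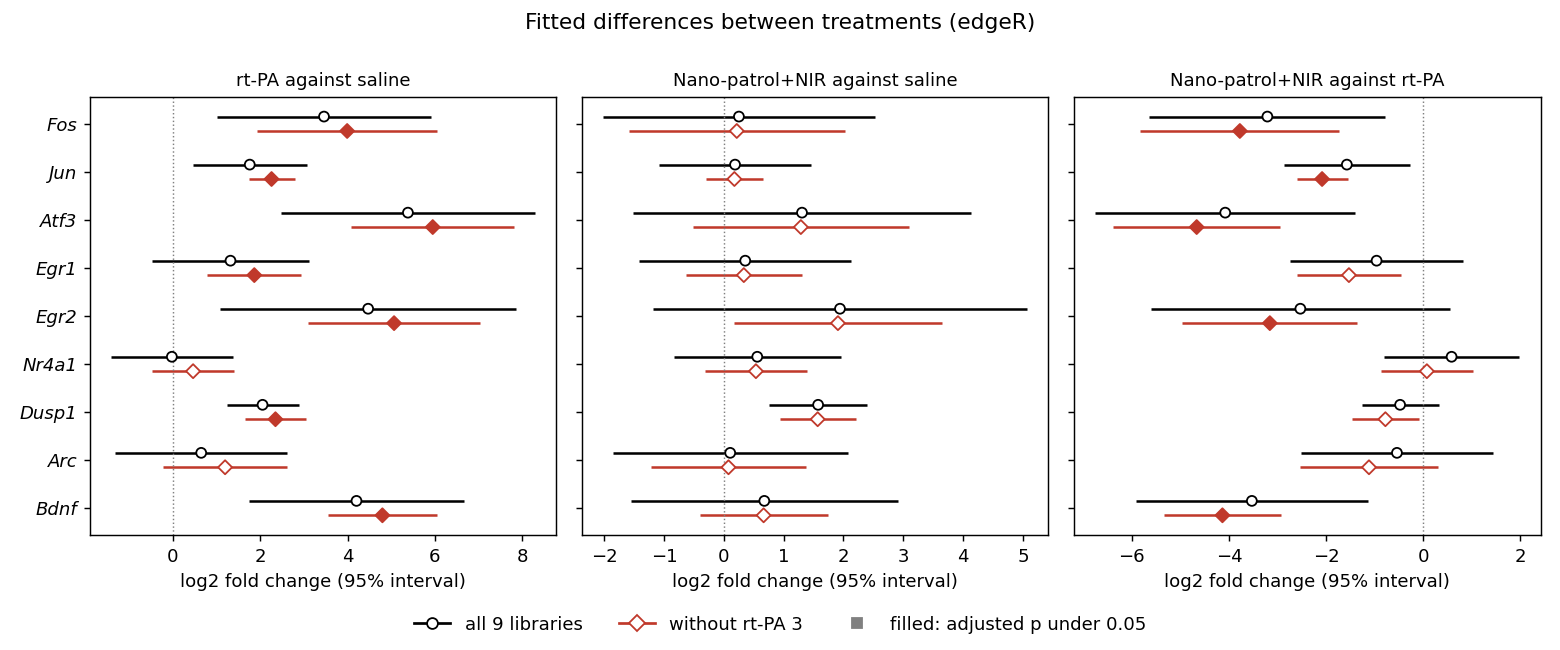
Fitted log2 fold change (x axis) with its 95% interval for each of the 9 genes in the 3 comparisons, from all 9 libraries (black circles) and without rt-PA 3 (red diamonds); filled symbols have an edgeR adjusted p under 0.05. No black symbol is filled, and without rt-PA 3 there are 7 filled symbols for rt-PA against saline, 0 for Nano-patrol+NIR against saline and 5 for Nano-patrol+NIR against rt-PA.

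The second comparison set Nano-patrol+NIR against the same saline libraries. All 9 members had a positive log2 difference, with a median of 0.56 against -0.01 over all tested genes, and 0 of 9 passed the threshold in edgeR, where 0.00649% of genes passed. Dusp1 had a log2 fold change of 1.58 (SE 0.36, 95% interval 0.76 to 2.39, edgeR adjusted p = 0.404) and was the 1 member with an unadjusted p under 0.05, where 3.44% of all tested genes were higher at that p. It was also the 1 member whose ranges did not overlap, against 7.62% of tested genes that were higher without overlap. Egr2 had a larger difference, 1.94, with a wider error (SE 1.38, 95% interval -1.19 to 5.07), and Atf3 one of 1.31 (SE 1.24, -1.51 to 4.13). Fos, Jun, Egr1, Nr4a1, Arc and Bdnf had log2 differences of 0.11 to 0.68, each below its standard error. These directions rested on single libraries for some members. With 1 library left out the number of positive differences was 6 to 9 of 9, and the median over all 9 members was 0.33 to 0.88. Fos, at 0.25 with all libraries, was at 1.87 without saline 1, -0.20 without saline 2, -0.12 without saline 3 and -0.11 without Nano-patrol+NIR 1. Arc, at 0.11, was at 0.62 without saline 1 and below 0 in 4 of these fits, the lowest being -0.27 without Nano-patrol+NIR 1. Egr1 was at -0.01 without Nano-patrol+NIR 1, and Atf3 at 2.31 without saline 1 and 0.75 without saline 2. DESeq2 called 1 of the 9, Dusp1 (log2 fold change 1.58, DESeq2 adjusted p = 0.00837), where it called 0.578% of all genes higher. Without rt-PA 3 edgeR called 0 of 9, where it called 0.24% of all genes, and the adjusted p of Dusp1 was then 0.0798. The log2 difference of Dusp1 was 1.39 to 1.73 with any 1 library left out, and its edgeR adjusted p was 0.0798 to 1.0 in those fits.

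The third comparison asked whether the treatments differed from each other, and it shares the rt-PA libraries with the first. For 8 of 9 members Nano-patrol+NIR was lower, with a median log2 difference of -1.57 against 0.02 over all tested genes. The differences were -4.08 (SE 1.18) for Atf3, -3.53 (SE 1.05) for Bdnf, -3.21 (SE 1.07) for Fos and -1.57 (SE 0.57) for Jun, and these 4 had an unadjusted edgeR p under 0.05, where 7.86% of all tested genes were lower at that p. After adjustment 0 of 9 passed in edgeR, where 0% of genes passed, and the smallest adjusted p was 0.221, for Atf3. Egr2 differed by -2.53 (SE 1.35, 95% interval -5.60 to 0.54), Egr1 by -0.96 (SE 0.78, -2.74 to 0.82), Arc by -0.54 (SE 0.87, -2.51 to 1.43) and Dusp1 by -0.48 (SE 0.35, -1.27 to 0.32). Nr4a1 was the 1 member with a positive value, 0.58 (SE 0.61, 95% interval -0.81 to 1.98). For all 9 members the ranges overlapped, where 8.89% of tested genes were higher and 8.54% lower without overlap. rt-PA 3 was below every Nano-patrol+NIR library for Jun, Egr1, Egr2, Nr4a1 and Arc and inside their range for Fos, Atf3, Dusp1 and Bdnf. Nr4a1 and Arc overlapped without rt-PA 3 as well, as both other rt-PA libraries lay inside the Nano-patrol+NIR range for Nr4a1, and rt-PA 1 for Arc. Without rt-PA 2 the difference of Arc turned to 0.32 and that of Dusp1 shrank to -0.06. Without rt-PA 3 the fit called 5 members, all lower in Nano-patrol+NIR, where 7.98% of all genes were called lower. These were Jun at -2.08 (SE 0.23, edgeR adjusted p = 0.00243), Bdnf at -4.13 (SE 0.52, adjusted p = 0.00391), Atf3 at -4.66 (SE 0.74, adjusted p = 0.00819), Fos at -3.77 (SE 0.88, adjusted p = 0.0312) and Egr2 at -3.16 (SE 0.78, adjusted p = 0.0367). DESeq2 with all libraries called 3 members (Fos, Atf3 and Bdnf), all lower, where it called 2.83% of all genes lower. The limma-voom fit called 0 of 9, where it called 0.00649% of genes, and its median log2 difference over the members was -0.86. In it 1 member had an unadjusted p under 0.05, as 12.3% of all tested genes had.

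In the test for any difference among the 3 groups 0 of 9 members passed in edgeR, where 0.00649% of genes passed, and the smallest adjusted p was 0.108, for Dusp1. Fos, Jun, Atf3, Egr2, Dusp1 and Bdnf had an unadjusted p under 0.05 in this test, as 14.7% of all tested genes had. DESeq2 called 5 of the 9, where it called 7.16% of genes, and limma-voom 0, where it called 0%. Without rt-PA 3 edgeR called 6, where it called 12.1% of genes.

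The shapes of the profiles were compared by the root mean square difference of log2 CPM over the 9 libraries, each gene centred on its own mean. The most alike members were Egr1 and Arc, 0.34 apart, and the least alike were Atf3 and Nr4a1, 2.27 apart. Among 11860 other genes averaging at least 5 CPM, Egr1 was also the gene most like Arc, whose own spread about its mean was 1.19 on this scale. The gene most like Fos, whose own spread was 1.95, was ENSRNOG00000012886, which the files do not pair with a symbol, at a difference of 0.51. It stood at 11.9, 3.08 and 3.06 CPM in saline 1 to 3, at 72.3, 125 and 4.59 CPM in rt-PA 1 to 3, and at 8.21, 6.07 and 7.03 CPM in Nano-patrol+NIR 1 to 3. Like Fos, it was highest in rt-PA 1 and rt-PA 2, and saline 1 was the highest of the remaining libraries.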

How the data were processed

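Libraries were made from poly(A)-selected brain RNA, per the labels' protocols. HISAT2, Bowtie2 2.2.8, StringTie 1.3.1 and fastp 0.18.0 appear in the submitters' processing notes with no role stated. How reads were counted, on which strand, and against which build and annotation is not given in the sources used here, so reads of overlapping or antisense genes cannot be told apart. The authors deposited whole-number read counts per gene, not normalized.

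Groups and numbers came from sample titles, and columns were matched through the sample descriptions. Whether the 3 libraries of a group are separate animals is not stated, so the p-values reflect spread between samples that may be technical. Libraries of one group differed beyond sampling noise in each pair, the lowest chi-square over its degrees of freedom being 9.19. At totals of 13059048 to 14992109 counts, counting error matters mainly for Atf3 in saline (0 to 15 counts) and Egr2 in rt-PA 3 (7 counts), and the floor of 3 counts covers that error only.

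Tests used edgeR 4.0.16 under R 4.3.3: filterByExpr by group, TMM scaling, 1 mean per group over all 9 libraries (6 residual degrees of freedom), robust quasi-likelihood F tests and Benjamini-Hochberg adjustment over the 15402 tested genes, called under 0.05. Standard errors are the log2 fold change over the root of F, and 95% intervals use the fitted degrees of freedom. Log2 CPM used a prior count of 2. The edgeR, DESeq2 and unweighted limma-voom fits were also run on simulated counts. No simulated library stood apart from its group, so that run cannot show how the fits handle the libraries that did. Alternatives were DESeq2 1.42.0 (without independent filtering), limma-voom in limma 3.58.1 with and without library weights, other scalings, no filter, only the 6 libraries compared, each library left out, saline 1, rt-PA 3 and Nano-patrol+NIR 3 left out together, and a replicate block. The titles share replicate numbers without saying what a number marks. Same-numbered libraries deviated together (r over 0.1 in all 3 pairs) between the treatments, and in the contrasts with saline for replicate 2 alone.

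The members were chosen by identifier, and the members, lists and alternatives with earlier results of these data known. Symbols are those given with the identifiers in the choice of members. Of 47357 genes in the RefSeq table used here (GRCr8), 0 carry an Ensembl identifier, so these pairs were not checked against it, and the lists of other pathway genes and cell type markers were not used. The named genes are the 9 members and the gene closest in profile to Fos and to Arc.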

Additional observations from a re-analysis of the deposited data

How the results depend on the processing

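Numbers called are listed in 1 order: the rt-PA and the Nano-patrol+NIR contrasts with saline, the contrast between these treatments, and the test of any difference. edgeR called 1, 1, 0 and 1 genes and 0 members in each. DESeq2 called 1059, 132, 627 and 1090 genes and 6, 1, 3 and 5 members. limma-voom called 0, 0, 1 and 0 genes and 0 members, and with library weights 6956, 909, 6027 and 7624 genes and 8, 2, 6 and 8 members. Only the 6 libraries compared gave 0, 3 and 0 genes and 0 members. Without a filter on low counts any difference gave 3 genes. Leaving out saline 1, rt-PA 3 and Nano-patrol+NIR 3 together gave 6606, 496, 6126 and 6842 genes and 9, 5, 6 and 9 members. There Nr4a1 was higher in rt-PA than in saline by 0.80 (edgeR adjusted p = 0.00307), against -0.02 with all libraries. These 3 libraries were picked from the same data for lying far from their groups. Each group then held only its most alike pair, which understates how much libraries vary. The counts and the p of this fit therefore cannot show a group difference. With a single library removed at a time the fits gave 0 to 2080, 0 to 37, 0 to 2010 and 1 to 1859 genes and 0 to 7, 0 to 0, 0 to 5 and 0 to 6 members, the highest always without rt-PA 3 and 0 members without any other library. Without saline 1 rt-PA against saline gave 12 genes, and without Nano-patrol+NIR 3 it gave 3. For these changes the cause was not tested. Relative log expression scaling and library totals alone left all these counts as they were.

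The replicate block called 0, 0, 0 and 1 genes and 0 members. Deviations from group means of same-numbered libraries correlated at -0.362 to 0.228 in the contrasts with saline, and over 0.1 for replicate 2 alone (0.203 and 0.228). Whether the numbers pair the libraries is not settled by these values. Between the treatments all 3 pairs exceeded 0.1 (0.113, 0.254 and 0.278), and the block there called 0 genes, as did the fit without it. With the block Arc was at -0.25 in Nano-patrol+NIR against saline, where 8 of 9 members stayed positive. Depth limits Atf3 in saline.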
